A study of Arabidopsis thaliana with 22 samples.

Results

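Roots of the Arabidopsis thaliana accession Col-0 that had spent 8 h on agar without sulfate were compared with roots that had spent the same 8 h on agar with ample sulfate. The comparison rests on 4 of the 22 arrays of a time course, 2 per medium. These arrays were taken by their labels, and the comparison was chosen with earlier results of these data known. Plants were 10 days old and the basal medium was MGRL agar, with 0 uM sulfate in the sulfate-free group and 1500 uM in the replete group. Roots labelled 0 h, also with 2 arrays and here called untreated, and the roots of both media at 2, 4, 12 and 24 h served to place the 8 h values. The titles of the 0 h arrays carry the same code, S1500, as those of the replete arrays. No group carries a mutation or a transgene per the labels, and all transferred roots shared the move to fresh agar. Arrays carry the letters A and B, and arrays of the same letter and time were treated as a pair. The labels do not say whether A and B came from separate cultures, so the spread behind the p-values may be a technical one.

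Plants take up sulfur as sulfate, activate it with ATP sulfurylase and reduce it to sulfide, from which cysteine, methionine and glutathione are made. In Arabidopsis a large share of root and leaf sulfur can be held in glucosinolates, sulfur-rich defence compounds whose aliphatic class is built from methionine by chain elongation. When sulfate runs short, sulfate uptake and glucosinolate breakdown are known to rise and aliphatic glucosinolate synthesis is known to fall.

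Each array gives a MAS5 signal for 22746 probe sets, and a difference is given as log2(signal + 11) without sulfate minus that on replete medium, with its standard error (SE) from limma. On that scale the fold change of dim probe sets is understated. A probe set was called when its p-value, adjusted over all 22746 by the Benjamini-Hochberg method, was below 0.05, and "rose" or "fell" is used below only of called differences. On the 4 arrays the median signal was 43.3 to 45.2. Of the 22 arrays, replete array A at 8 h stood farthest from the rest. Its correlation with the median of the arrays was 0.982, against 0.985 to 0.994 for the other arrays, and the SD of its log2 deviations was 0.325, against 0.193 to 0.296. Of 4 root hair markers chosen, only the expansin genes EXPA7 and EXPA18 lay on probe sets with a single listed gene. Their summed signal was 254 and 242 without sulfate and 239 and 284 on replete medium. The green tissue markers RCA and LHCB4.1 summed to 181 and 203 without sulfate and to 244 and 204 on replete medium, and to 371 and 437 in untreated roots. Probe sets with a listed gene covered no marker chosen for endodermis, vascular tissue, non-hair epidermis or root cap, so those were not analysed here. In whole roots, fewer cells of a type and less RNA per cell cannot be told apart.

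At 8 h the media differed at few probe sets. Called were 6 probe sets, 0.0264% of those tested, of which 4 rose without sulfate (0.0176%) and 2 fell (0.00879%). Those that rose were the sulfur deficiency gene AT1G04770, the putative amino acid transporter gene AT3G56200 and 2 probe sets with no listed gene. Those that fell were GSTU20, a glutathione transferase gene tied to aliphatic glucosinolate synthesis, and AT1G18310, whose probe set was very dim on every array. An unadjusted p below 0.05 was reached by 2325 probe sets (10.2%), of which 1059 were higher and 1266 lower without sulfate. The median difference over all probe sets was -0.01.

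The largest difference belonged to probe set 248676_at, for which the annotation lists no gene. Without sulfate its signal was 218 on array A and 317 on array B, and on replete medium it was 14.8 and 27.0. The groups did not overlap, and both replete arrays were close to untreated roots, at 11.3 and 14.6. The difference was 3.13 (SE 0.21, adjusted p = 0.000759 in limma), or 8.75-fold, and it was alike in both pairs, at 3.15 and 3.11.

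Probe set 246884_at, likewise without a listed gene, gave 117 and 186 without sulfate, 29.2 and 35.6 on replete medium and 9.25 and 8.28 in untreated roots. Every array without sulfate was above every replete array, and the arrays of both media were above those of untreated roots. Against untreated roots limma called the sulfate-free difference of 3.01 (SE 0.40, adjusted p = 0.000354). It did not call the replete one of 1.13 (SE 0.40, adjusted p = 0.11). Between media the probe set rose by 1.88 (SE 0.19, adjusted p = 0.014 in limma), or 3.68-fold. Without the pairing of arrays the same difference was not called (adjusted p = 0.439).

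AT1G04770, known as SDI2, is a sulfur deficiency-induced gene whose product, with its relative SDI1, restrains glucosinolate synthesis. Its signal was 393 and 390 without sulfate and 173 and 208 on replete medium. The sulfate-free arrays were nearly equal and lay far above both replete arrays. It rose by 1.01 (SE 0.11, adjusted p = 0.0182 in limma), or 2.01-fold, and without the pairing it was not called (adjusted p = 0.168). In untreated roots the signal was 77.8 and 103, below both media.

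AT3G56200 encodes a putative amino acid transporter. Its signal was 220 and 268 without sulfate, 120 and 148 on replete medium and 117 and 108 in untreated roots. Replete roots thus lay near untreated roots while roots without sulfate stood above both. It rose by 0.82 (SE 0.09, adjusted p = 0.0182 in limma), or 1.76-fold, with 0.82 in each pair.

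GSTU20 had signals of 175 and 281 without sulfate and 311 and 462 on replete medium. Array B was brighter than array A in both media, and within each letter the sulfate-free array was the lower. The difference was -0.75 (SE 0.09, adjusted p = 0.0182 in limma), a 1.68-fold fall, and without the pairing it was not called (adjusted p = 0.741). Untreated roots gave 199 and 201.

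AT1G18310, a glycosyl hydrolase family gene, gave 0.463 and 0.592 without sulfate and 10.3 and 10.4 on replete medium. All 4 values lay below 27.0, the signal at the 40th percentile of probe sets, and the replete arrays put it near percentile 20.2 and 22 of their own values. Its log2 difference of -0.89 (SE 0.10, adjusted p = 0.0182 in limma) therefore compares signals in the range of dim probe sets, for which no detection calls were used. Replete roots at 12 and 24 h gave means of 0.823 and 1.18, near the 1.06 and 0.462 of untreated roots.

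**Figure D1:**
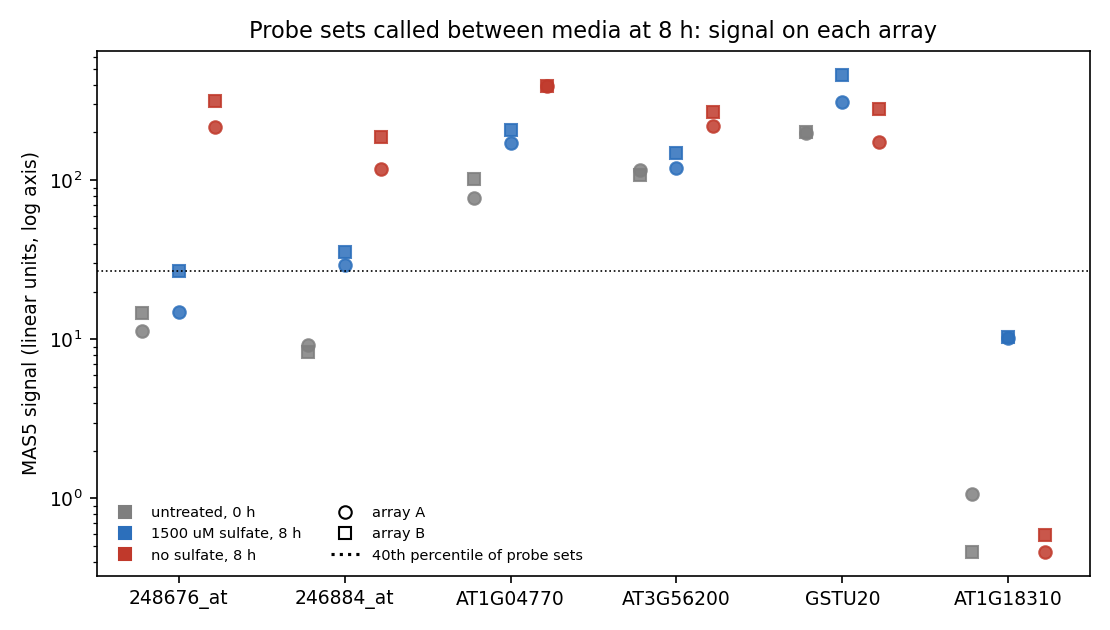
MAS5 signal (log axis) of the 6 called probe sets on each array of roots without sulfate and on replete medium at 8 h and of untreated roots, circles for array A and squares for array B, with a dotted line at the 40th percentile signal of 27.0. The sulfate-free arrays stand above the replete arrays for the first 4 probe sets and below them for GSTU20 and AT1G18310.

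How many probe sets were called depended on the pair. With pair A left out none of the 22746 was called by limma, and the 6 had adjusted p-values between 0.0877 and 0.393. With pair B left out 221 were called. Pair A holds the replete array that stood apart. The SD over all probe sets of the difference between media was 0.36 in pair A and 0.263 in pair B, against 0.236 to 0.302 in the pairs of the other times. Differences above 1 in size on the log2 scale numbered 351 in pair A and 88 in pair B. Over all 22746 probe sets the differences of both pairs correlated with r of 0.0537, and 11600 (51%) had the same sign. The paired fit favours probe sets whose pairs are alike, and among the 6 called ones the widest gap was that of 246884_at, at 1.67 in pair A and 2.08 in pair B. In a fit without pairs, 7 probe sets were called with all arrays and 21 with replete array A left out.

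**Figure D2:**
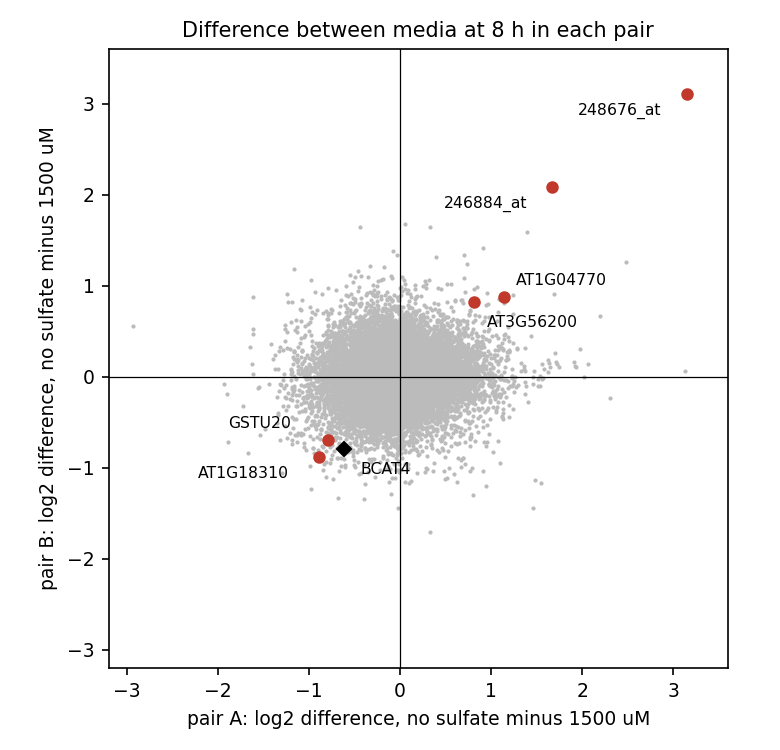
Log2 difference between media at 8 h in pair A (x axis) and pair B (y axis) for all 22746 probe sets (grey), with the 6 called probe sets (coloured) and BCAT4 (diamond) named. The grey cloud is wider along pair A, with SDs of 0.36 and 0.263, and the called probe sets lie close to the diagonal.

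A gene is called measured below when it lay on a probe set with a single listed gene. Among genes of aliphatic glucosinolate synthesis, 6 of the 31 loci listed were measured in that sense. Of these 1 fell, GSTU20, where 0.00879% of all probe sets fell, and that call was lost without the pairing. All 6 had a negative log2 difference, as had 12184 of the 22746 probe sets tested. Their median was -0.65 against -0.01 over all probe sets, in a list chosen with earlier results of these data known. In 5 of the 6 every sulfate-free array was below every replete array, a pattern that 18.1% of all probe sets showed. BCAT4, whose aminotransferase starts the chain elongation of methionine, had signals of 982 and 907 without sulfate and 1518 and 1576 on replete medium. The groups were well apart, but the difference of -0.71 (SE 0.10) gave an adjusted p = 0.0551 and was not called. Of 15 other settings 3 called it, and the adjusted p lay between 0.0124, with dim probe sets left out, and 0.895, with the 8 h arrays alone. Untreated roots, at 1023 and 1130, were close to the sulfate-free arrays.

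AT2G31790 (UGT74C1), a glucosyltransferase of the same pathway, had 143 and 170 without sulfate against 220 and 265, a log2 difference of -0.59 (SE 0.11, adjusted p = 0.137). AOP3, a side chain dioxygenase gene, was dim on all 4 arrays, with 2.85 and 3.88 against 18.5 and 11.9 (log2 difference -0.86, SE 0.18, adjusted p = 0.169). AT2G25450 (GSL-OH), whose product hydroxylates the side chain, was bright in both media, with 979 and 1103 against 1195 and 1223 (log2 difference -0.22, SE 0.10). UGT74B1, a glucosyltransferase that serves indole and aliphatic glucosinolates and was the only measured member of 13 indole loci, had a log2 difference of -0.09 (SE 0.11). Its sign differed between the pairs.

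Of 19 listed loci of glucosinolate transport, breakdown and endoplasmic reticulum bodies 8 were measured, and none of the 8 was called. BGLU28, a beta-glucosidase gene known to be induced by sulfur shortage, gave 30.4 and 42.6 without sulfate and 13.8 and 11.8 on replete medium. The groups did not overlap, but the signals were dim and the log2 difference of 0.99 (SE 0.21, adjusted p = 0.169) was not called. The importer genes GTR1 and GTR2 had log2 differences of 0.29 (SE 0.10) and -0.24 (SE 0.10). PYK10, the myrosinase-like beta-glucosidase of root endoplasmic reticulum bodies, was among the brightest genes, with 3005 and 3523 against 3500 and 3718 (log2 difference -0.15, SE 0.16). NAI2, needed to form those bodies, had a log2 difference of -0.25 (SE 0.11), and its regulator NAI1 one of -0.08 (SE 0.17). The transcription factor genes MYC3 and MYC4 had 0.15 (SE 0.09) and -0.15 (SE 0.13). The list's median was -0.12. Of 12 loci listed as markers of sulfur limitation only AT1G04770 and BGLU28 lay on probe sets with a single listed gene, and AT1G04770 rose. The other loci were not analysed here, which does not mean that the array lacks them.

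Of 12 listed loci of sulfate activation and reduction, 3 lay on probe sets with a single listed gene, and none of the 3 was called. For the ATP sulfurylase genes APS3 and APS4 the log2 difference was 0.16 (SE 0.13) and -0.15 (SE 0.10), and for the sulfite reductase gene SIR it was -0.24 (SE 0.09, adjusted p = 0.424). SIR gave 700 and 844 without sulfate and 873 and 946 on replete medium, so its arrays did not overlap although the difference was small. The 12 listed loci of sulfate transport and the 10 of cysteine synthesis had no probe set with a single listed gene and were not analysed here.

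Around glutathione, AT5G40670, the homologue of the animal cystine exporter cystinosin, gave 434 and 473 without sulfate and 309 and 327 on replete medium. Its arrays did not overlap, and the log2 difference was 0.50 (SE 0.12, adjusted p = 0.245). AT1G44790 (GGCT2;3), a gamma-glutamyl cyclotransferase gene of glutathione breakdown, had a log2 difference of 0.07 (SE 0.18), with opposite signs in the pairs.

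Of 15 listed loci of methionine and S-adenosylmethionine 4 were measured, and none of the 4 was called. MGL, the methionine gamma-lyase gene of methionine breakdown, had 88.7 and 62.5 without sulfate and 48.0 and 34.8 on replete medium, with a log2 difference of 0.72 (SE 0.15, adjusted p = 0.175). CBL, the cystathionine beta-lyase gene of methionine synthesis, SAMDC, an S-adenosylmethionine decarboxylase gene, and the homocysteine methyltransferase gene HMT-1 lay between -0.16 and -0.08. Of 13 listed loci of methionine sulfoxide reductases, which repair oxidised methionine, 5 were measured. Among these MSRB5 was the highest, with 1326 and 1610 against 986 and 1126 (log2 difference 0.47, SE 0.17, adjusted p = 0.399). MSRB6 was the lowest, with 44.0 and 49.1 against 65.4 and 95.9 (log2 difference -0.65, SE 0.18, adjusted p = 0.282). MSRB9, MSRA5 and MSRB3 had -0.23, 0.05 and 0.01.

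**Figure D3:**
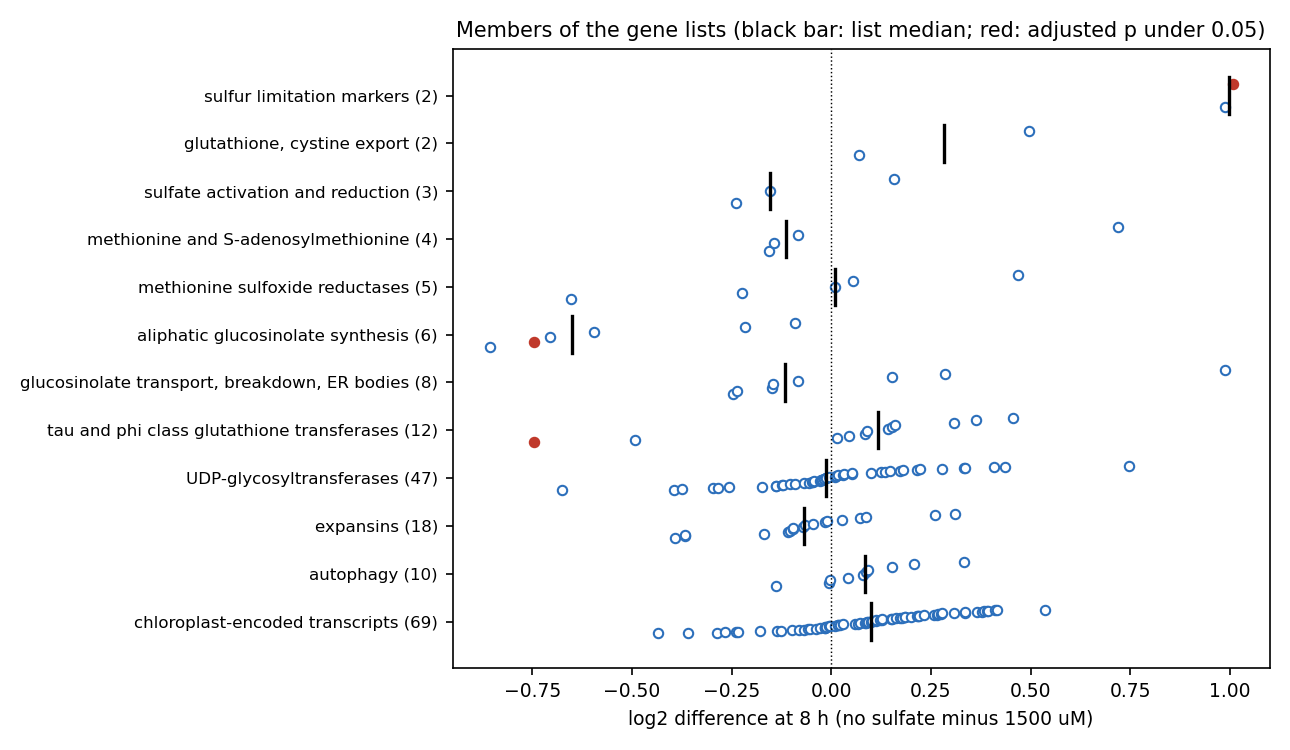
Log2 difference between media at 8 h for each measured member (points, filled where the adjusted p was below 0.05) of 12 gene lists, with the number of members in brackets and a black bar at each list's median. The aliphatic glucosinolate genes lie wholly below 0 with a median of -0.65, while the larger families spread on both sides of 0.

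Larger families were centred near the median of all probe sets. Of 12 tau and phi class glutathione transferase genes 1 fell, where 0.00879% of all probe sets fell. It was GSTU20, counted above among the glucosinolate genes, and that call was lost without the pairing. The other 11 were not called, and the list median was 0.12. Among them GSTU25 gave 560 and 466 against 369 and 370 (log2 difference 0.46, SE 0.24), and GSTU22 gave 904 and 682 against 631 and 587 (0.36, SE 0.14). None of the 47 UDP-glycosyltransferase genes was called, and their median was -0.01. UGT73B4, a glycosyltransferase of stress responses, had 47.0 and 63.0 without sulfate against 25.1 and 31.2 (log2 difference 0.75, SE 0.15, adjusted p = 0.152). None of 18 expansin genes, whose products loosen cell walls, was called. EXPB3 and EXPA4 had -0.39 (SE 0.09) and -0.37 (SE 0.10), the latter from 720 and 770 without sulfate against 956 and 971.

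Of 11 auxin response genes, 6 WRKY transcription factor genes, 10 autophagy genes and 69 chloroplast-encoded transcripts none was called, and their medians were -0.12, -0.13, 0.08 and 0.10. ATG8E, which encodes a protein of the autophagosome membrane, gave 294 and 302 against 238 and 231 (log2 difference 0.33, SE 0.13, adjusted p = 0.424). The 3 measured clock and cold genes, AT4G33980 (COR28), COR27 and GI, had 0.47, 0.29 and 0.21, without overlap between media, which 13.9% of all probe sets showed in that direction. The only measured iron and flavonoid genes, BHLH101 and DFR, were dim, at -0.39 (SE 0.22) and -0.23 (SE 0.19). The low oxygen genes PDC2 and AT3G10040 (HRA1) had 0.14 and -0.01. The dividing cell marker AUR1 was level, at 111 and 134 without sulfate and 111 and 125 on replete medium.

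The other genes named by rule were those of smallest p above the 40th percentile signal, and none of them passed the adjusted threshold. On the higher side, AT4G31330 gave 83.4 and 108 without sulfate and 39.1 and 33.7 on replete medium, with a log2 difference of 1.16 (SE 0.23, adjusted p = 0.148). AT2G38450 gave 118 and 123 against 45.6 and 81.1 (0.87, SE 0.16, adjusted p = 0.137), and its difference was 1.19 in pair A and 0.54 in pair B. AT4G39140, a RING finger protein gene, gave 145 and 132 against 68.3 and 80.1 (0.81, SE 0.16). AT3G27150, a kelch repeat F-box gene, gave 182 and 198 against 102 and 115 (0.75, SE 0.14). AT1G54290, a translation initiation factor gene of the SUI1 type, gave 111 and 98.5 against 54.5 and 61.9 (0.74, SE 0.15). In each of these 5 genes both sulfate-free arrays were above both replete arrays, as in 13.9% of all probe sets, but genes chosen for small p-values favour that pattern.

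AT5G52550, SDRB (a short-chain dehydrogenase gene), AT1G21680, AT3G43230, AT5G19630 and AT4G17940 (a tetratricopeptide repeat protein gene) were also higher, with log2 differences between 0.48 and 0.64. SDRB has 2 probe sets, and the one not counted here gave a log2 difference of 0.15 (SE 0.10, adjusted p = 0.638). AT5G19630 differed by 0.71 in pair A and 0.32 in pair B.

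On the lower side, AT2G45180 gave 170 and 162 without sulfate and 293 and 231 on replete medium, with a log2 difference of -0.61 (SE 0.11, adjusted p = 0.114). AT1G19380 and AT3G14280 had -0.70 (SE 0.16) and -0.64 (SE 0.15), and both differed far more in pair A, at -1.04 and -0.96, than in pair B, at -0.36 and -0.33. AT1G61740, a membrane protein gene of the TauE/SafE family, gave 312 and 293 against 439 and 422 (-0.49, SE 0.11), with like differences in both pairs. AT1G61890, a MATE efflux carrier gene, gave 208 and 204 against 283 and 302 (-0.48, SE 0.09). AT5G01740, AT3G46880, AT5G60760, AT3G45700, a gene of the nitrate and peptide transporter family, and AT2G34140, a Dof transcription factor gene, lay between -0.59 and -0.47.

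Each medium at 8 h was also compared with untreated roots. In both comparisons the hour and the move to fresh agar differ. By the array titles the sulfate level differs as well only for roots without sulfate. The parts of these cannot be told apart. Against untreated roots limma called 1049 probe sets (4.61%) without sulfate, 2.48% above and 2.13% below. On replete medium it called 1467 (6.45%), 3.33% above and 3.12% below. Both comparisons share the untreated arrays, and the named genes were picked for their difference between media, so the counts that follow describe them only. A call on one medium and not on the other does not show that the media differ, and between media only AT1G04770, AT3G56200, GSTU20 and AT1G18310 of these genes were called. Of the 15 genes named as higher without sulfate, 4 were above untreated roots without sulfate, and of these AT3G56200, AT4G31330 and UGT73B4 were called without sulfate and not on replete medium. Another 5, AT2G38450, AT4G17940, AT5G52550, AT3G43230 and AT5G19630, were called below untreated roots on replete medium and not called without sulfate. Several of these calls lay at the threshold, with adjusted p-values of 0.0495 for AT4G31330 without sulfate and of 0.0499 for AT5G52550 and 0.0487 for AT3G43230 on replete medium, where UGT73B4 missed it at 0.0547. AT2G38450, for example, was at 133 and 121 in untreated roots, close to its sulfate-free arrays, with a log2 difference from untreated of -0.07 (SE 0.20) without sulfate and -0.94 (SE 0.20, adjusted p = 0.0131) on replete medium. AT1G04770 was above untreated roots in both media, by 2.00 (SE 0.21, adjusted p = 3.74e-05) without sulfate and 0.997 (SE 0.21, adjusted p = 0.0108) on replete medium.

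Of the 15 genes named as lower, 6 were above untreated roots on replete medium. For 5 of these the sulfate-free roots were not called against untreated roots, and they include AT1G18310, AT2G45180 and the glucosinolate genes GSTU20, BCAT4 and AT2G31790. GSTU20 differed from untreated roots by 0.89 (SE 0.19, adjusted p = 0.0115) on replete medium and by 0.14 (SE 0.19) without sulfate. For BCAT4 the values were 0.52 (SE 0.13, adjusted p = 0.0265) and -0.19 (SE 0.13). For AT2G31790 they were 0.66 (SE 0.13, adjusted p = 0.00717) and 0.06 (SE 0.13). AT2G25450 was above untreated roots in both media, by 0.92 on replete medium and 0.71 without sulfate. AT3G14280 and AT5G01740 were below untreated roots in both media, by more without sulfate, at -1.75 and -1.33, than on replete medium, at -1.11 and -0.74. AT3G45700 and AT1G61740 were called below untreated roots without sulfate only, but the difference between media was not called for either.

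**Figure D4:**
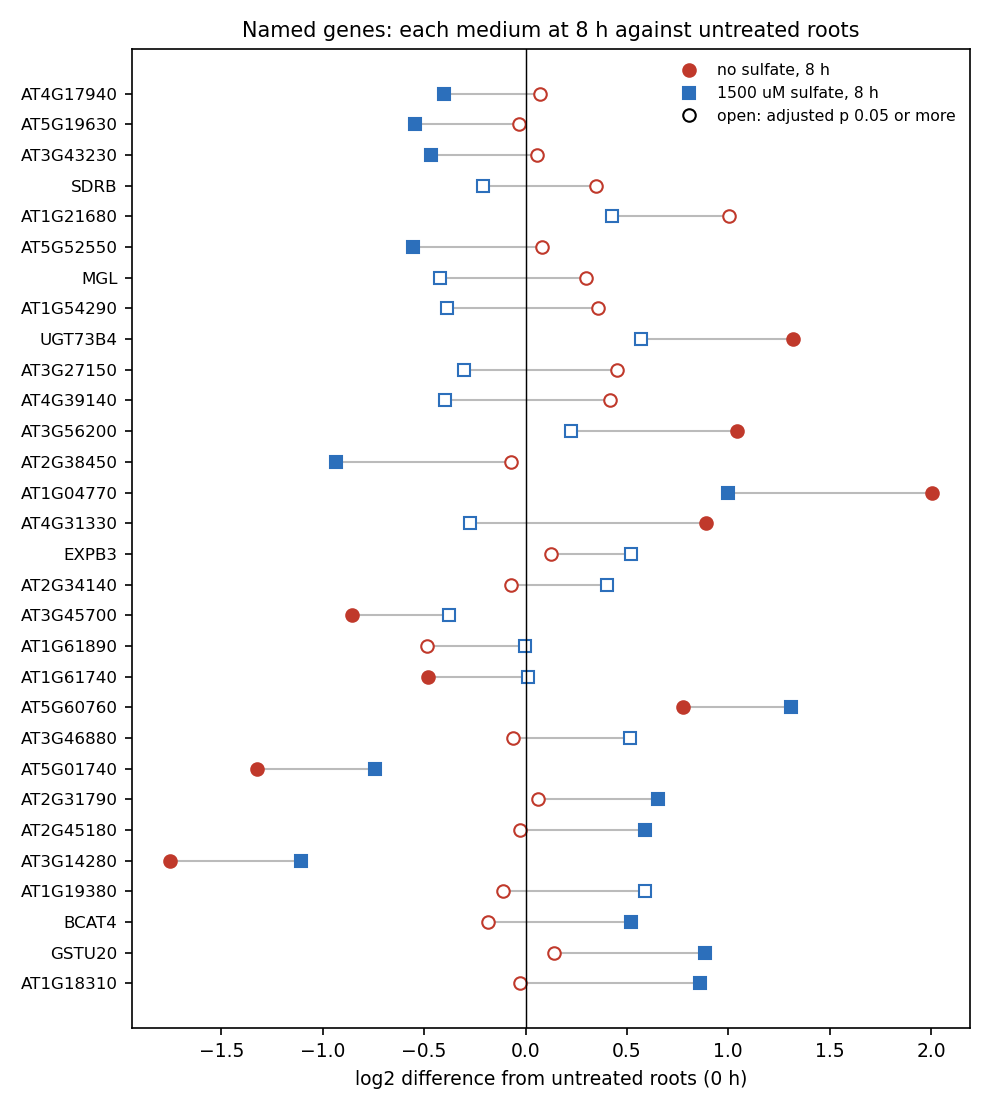
Log2 difference from untreated roots of the 30 genes named by rule, circles for roots without sulfate and squares for replete medium at 8 h, filled where the adjusted p was below 0.05. GSTU20, BCAT4 and AT2G31790 have filled squares to the right of 0 and open circles near 0, and AT1G04770 is filled to the right of 0 in both media.

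Between media limma called 0 probe sets at 2 h, where 1082 (4.76%) had an unadjusted p below 0.05. By that unadjusted count 8 h was the highest time, with 2325 against 1523 at 4 h, 1811 at 12 h and 1369 at 24 h. Pair A of 8 h holds the replete array that stood apart, and the SD of its differences between media was 0.36, against 0.263 in pair B. Whether the rank of 8 h rests on pair A was not tested, as a fit without that pair also has fewer arrays. By the adjusted threshold limma called 2 at 4 h (0.00879%), then 45 (0.198%) at 12 h and 86 (0.378%) at 24 h. The 2 called at 4 h, 248676_at and AT1G04770, were both among the 6 of 8 h (33.3% of them). Of the 6, 5 (83.3%) were called again at 12 h and 5 at 24 h, which are 11.1% and 5.81% of the calls at those times. AT1G18310 was the exception at both. At 2 h 5 of the 6 had the sign of 8 h and at 4, 12 and 24 h all 6 had it, but AT1G18310 was at 0.40 at 2 h and within its SE of 0 at 4, 12 and 24 h. Of the 30 named genes 22 had the same sign at 2 h and 25 at 4 h, against 51.1% and 52.5% of all probe sets. At 12 and 24 h 28 and 26 had it, against 56.3% and 50.2%. Over the 13648 probe sets above the 40th percentile, the 8 h differences correlated with those of 2 h with r of 0.0565, of 4 h with 0.213, of 12 h with 0.303 and of 24 h with 0.235, a description across probe sets that share array design and scaling.

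In the order of the 5 times from 2 to 24 h, the difference of 248676_at was 1.53, 1.90, 3.13, 3.30 and 4.51 (SE 0.21 at each). Its replete signal stayed low, at means of 7.57 to 42.3, while its sulfate-free mean went from 43.2 at 2 h to 1189 at 24 h. AT1G04770 was at 0.87, 1.20, 1.01, 1.03 and 1.303 (SE 0.11), and AT3G56200 gave 0.39, 0.64, 0.82, 0.74 and 1.34 (SE 0.09). GSTU20 was at -0.18, -0.47, -0.75, -0.92 and -1.59 (SE 0.09). BCAT4 had -0.06 and -0.15 at 2 and 4 h, -0.71 at 8 h and then -1.23 and -2.68 (SE 0.10), with both late differences called. From 4 to 24 h the median over the 6 aliphatic glucosinolate genes was -0.19, -0.65, -0.70 and -1.53.

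Changes in the difference from one time to the next were tested directly. No probe set differed in its difference between media from 4 to 8 h or from 8 to 12 h by limma, with 1495 (6.57%) and 1397 (6.14%) at an unadjusted p below 0.05, and 6 and 1 called with a random replicate block. From 8 to 24 h the difference changed at 23 probe sets (0.101%), 8 upward (0.0352%) and 15 downward (0.0659%). Without the replicate block 6 were called, and 2 without pair A and 95 without pair B. With the letter as the block 14 were upward and 9 downward. The 23 include 246884_at, BGLU28, BCAT4, AT2G25450 and GSTU20. BGLU28 went from 0.99 at 8 h to 4.29 at 24 h, and BCAT4 from -0.71 to -2.68. For AT1G04770 the 24 h difference exceeded that of 8 h by 0.30 (SE 0.15, adjusted p = 0.719), which was not called.

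**Figure D5:**
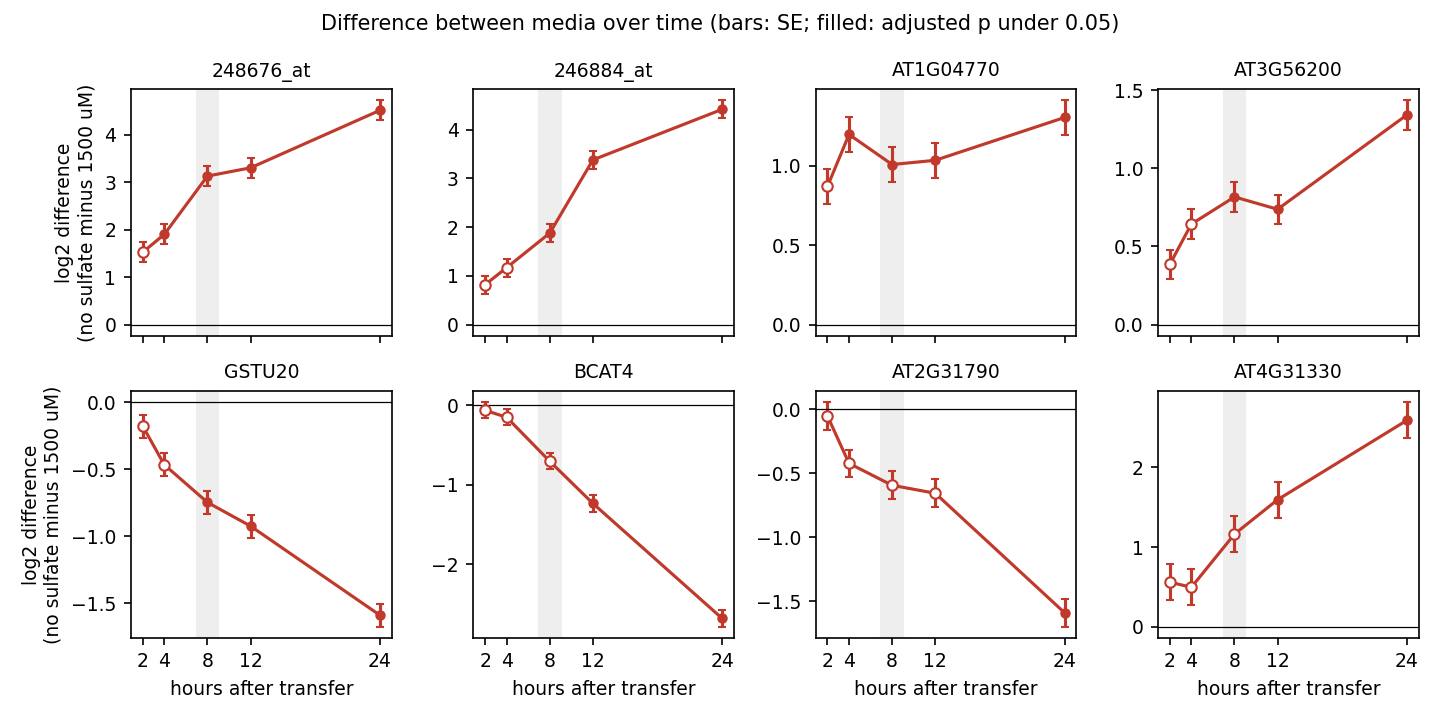
Log2 difference between media (y axis) at 2, 4, 8, 12 and 24 h after transfer (x axis) for 8 probe sets, with SE bars and filled points where the adjusted p was below 0.05; the 8 h values are shaded. 248676_at goes from 1.53 to 4.51 and BCAT4 from -0.06 to -2.68, while AT1G04770 lies between 0.87 and 1.303.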

How the data were processed

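The authors deposited probe set intensity values on a linear scale for 22 arrays, computed by MAS5 according to the submitters' processing notes. Its version is not given in the sources used here, nor is the scaling. On every array the mean signal, with 2% trimmed at each end, was 100.007 or 100.008. No further normalization was applied. Of 22810 probe sets 64 controls were left out. The rest were put on log2(signal + 11), where 11 is 0.25 of the pooled median of 43.9, rounded.

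Differences between media were fitted with limma 3.58.1 in R 4.3.3 (lmFit, eBayes with an intensity trend) on the 20 arrays after transfer, with each time and letter as a block and a medium effect at each time, which left 5 residual degrees of freedom. Comparisons with untreated roots used all 22 arrays with 11 groups and the letter. The median SE at 8 h was 0.15, and the number of arrays limits the precision. The letters were taken as pairs because the comparison was defined with arrays paired by letter. The deviations of same-letter arrays from their group means correlated with r between 0.112 and 0.455 at all 5 times, 0.112 being that of 8 h. The fit was also run on simulated data. There each probe set had the same spread on every array, so the run does not cover an array that stands apart.

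The annotation lists 1 gene for 13513 probe sets, several for 503 and none for 8730; 13436 of the 13513 were matched to RefSeq (TAIR10.1). Only probe sets with 1 gene name a gene, and each level is compared only within its probe set. Named genes are, in each direction, the called ones whose pairs agree in sign, filled up to 15 with the smallest p-values above the 40th percentile signal, up to 5 called probe sets without a gene, and all measured members of the sulfur and glucosinolate lists; of other lists, members called or of highest signal, and some of small p chosen after their values were seen. The comparison, the members and the gene lists were chosen with earlier results of these data known. Alternatives covered the block, pseudocount, filter, normalization, variance model and arrays left out.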

Additional observations from a re-analysis of the deposited data

Results flagged for a closer look

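The difference between media at 24 h was tested against that at 8 h, and it was higher at 8 probe sets and lower at 15. For BGLU28 it was larger by 3.31 (SE 0.29, adjusted p = 0.003 in limma), from 0.99 to 4.29, with sulfate-free signals of 36.5 at 8 h and 362 at 24 h and replete signals of 12.8 and 8.03. For 246884_at it was larger by 2.54 (SE 0.26, adjusted p = 0.00717), from 1.88 to 4.42. For BCAT4 the change was -1.98 (SE 0.14, adjusted p = 0.000749), from -0.71 to -2.68. For AT2G25450 it was -1.25 (SE 0.14, adjusted p = 0.00853), from -0.22 to -1.47, and for GSTU20 it was -0.84 (SE 0.12, adjusted p = 0.0409), from -0.75 to -1.59.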

How the results depend on the processing

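The count of 6 probe sets called between media at 8 h was 7 without the replicate block, 9 with the letter as the block, 50 with a random replicate block, 18 at a pseudocount of 1, 17 with dim probe sets left out, 15 with a robust variance and 1 from the 8 h arrays alone. Leaving out arrays gave 0 (without pair A) to 354 (without a block and without replete array B), with 221 without pair B. In fits that also had no block, the count was 21 without replete array A, 7 without sulfate-free array A and 2 without sulfate-free array B. With a lone array in a group, its spread was assumed to be that of the others. Of 56 named or listed genes, 3 calls were lost without the replicate block and the other 53 results kept direction and side of the threshold. No called gene reversed. The change from 4 to 8 h (0 called) gave 1 without the replicate block, 1 with the letter and 6 with the random block, and 0 to 7 with a pair left out. The change from 8 to 12 h (0 called) gave 1 without the replicate block and 1 with the random block, and 0 to 13. The change from 8 to 24 h (23 called) gave 6 without the replicate block, and 2 to 95. With the letter as the block it kept its count of 23 but was split 14 upward and 9 downward, against 8 and 15. Against untreated roots, the 1049 called without sulfate became 576 without the block, 579 with the random block and 496 to 875 with a pair left out. The 1467 on replete medium became 664, 711 and 535 to 2274. Uncalled differences near 0 reversed with arrays left out: UGT74B1 (-0.27 to 0.093), GTR2 (-0.47 to 0.00068), NAI1 (-0.32 to 0.15), APS3 (-0.050 to 0.37), AT1G44790 (-0.32 to 0.45), MSRA5 (-0.065 to 0.17) and MSRB3 (-0.14 to 0.15, and -0.025 after quantile normalization). Fewer arrays apart, the cause of these shifts was not tested.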
